A study of Mus musculus with 17 samples.

Results

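The genes described here are the fusion and adhesion genes by which myoblasts recognise one another and join into muscle fibres: Mymk, Mymx, Cdh15, Cdh2, Cdon, Boc, Ncam1, Myof, Cav3 and Itgb1. They were chosen by name, as the rows of the deposited count table that carry one of these 10 symbols, and 9 of the 10 were found among 15062 genes. Cav3 had no row and is not analysed here. RNA was sequenced in 17 libraries of C2C12, an established line of mouse myoblasts that leave the cell cycle and form multinucleated fibres when serum is withdrawn. Cultures were kept in a medium with 10% fetal bovine serum, per the labels. One group carried pMSCV, which names a retroviral vector and served as the control, and another expressed SRF (serum response factor, which binds DNA and drives muscle and cytoskeletal genes). The other groups expressed fusions, each named for SRF and a partner: SRF-FOXO1 and SRF-RELA, whose partners are transcription factors, SRF-PDGFRB, whose partner is a receptor tyrosine kinase, and SRF-ICA1L. The SRF-PDGFRB group had 2 libraries and each other group had 3. The labels do not say whether the libraries of a group came from separately infected cultures or clones, so the p-values measure the spread between these libraries, which may be technical.

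Mymk (myomaker) and Mymx (myomixer) are muscle-specific membrane proteins that together drive the merging of myoblast membranes. Before that step, cells adhere through cadherins, chiefly M-cadherin (Cdh15) and N-cadherin (Cdh2), and through Ncam1 and integrins. Cdon and Boc are immunoglobulin-domain receptors that associate with cadherins, carry a pro-myogenic signal and also act as hedgehog co-receptors. Myof (myoferlin) is a calcium-binding membrane protein of the ferlin family, and Itgb1 is the beta subunit of most integrins on myoblasts.

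Library totals lay between 20901442 and 23543734 counts. Srf itself had 678 to 1673 CPM (counts scaled to a common library size) in the SRF libraries, 66.6 to 93.8 CPM in the pMSCV libraries and 121 to 279 CPM with SRF-ICA1L. It had 85.0 to 155 CPM with SRF-RELA, 71.8 to 105 with SRF-FOXO1 and 70.5 to 81.4 with SRF-PDGFRB. The SRF libraries lay above all others, and the SRF-ICA1L libraries also lay above every pMSCV library. The other fusion groups overlapped with pMSCV, and whether their fusions were expressed was not tested. The SRF-PDGFRB libraries stood far from each other: 11.2% of all genes were at least 2-fold higher in replicate 2 than in replicate 1, and 10.5% at least 2-fold lower. Myoblast markers were found in every library, all 4 of 4 in the table (Myod1, Myf5, Des and Pax7), at a summed level of 54.6 to 1040 CPM. Most of that sum was Des (44.5 to 892 CPM), while Pax7 was near the floor in several libraries, down to 1 count in SRF-PDGFRB replicate 1. Of markers of other cells, Pecam1, Kdr, Ptprc, Adgre1, Sox10, Adipoq and Plin1 had no row, and the summed endothelial markers reached 2.81 CPM, those of macrophages 7.62 CPM and those of Schwann cells 5.13 CPM at most. Fibroblast markers were not low: the 3 of 5 in the table summed to 68.7 to 458 CPM, chiefly Ly6a (48.4 to 386 CPM), with ranges that overlapped between all groups, and their part in the results was not tested. The adipocyte markers in the table reached 31.9 CPM, nearly all of it Pparg. Acta2, a smooth muscle actin that C2C12 cells also make, ran from 222 to 3902 CPM. Because these are bulk samples, fewer cells of a type and less RNA per cell cannot be told apart.

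The members differed widely in size, level and position in the genome (GRCm38, the build named in the submitters' processing notes, with the GENCODE vM21 annotation). Mymk lies on chromosome 2 at 27061636 to 27072179 on the minus strand and encodes 221 amino acids. Mymx lies on chromosome 17 at 45600971 to 45602102 on the minus strand. Its open reading frame, shared by 3 of its 4 coding transcripts, spans 255 bases and encodes 84 amino acids, the fewest of the 9 members. It is printed because it shows how short the coding sequence of one of the fusion proteins is, with the start and stop codons in capitals and the 5′ end first.
Mymx coding sequence: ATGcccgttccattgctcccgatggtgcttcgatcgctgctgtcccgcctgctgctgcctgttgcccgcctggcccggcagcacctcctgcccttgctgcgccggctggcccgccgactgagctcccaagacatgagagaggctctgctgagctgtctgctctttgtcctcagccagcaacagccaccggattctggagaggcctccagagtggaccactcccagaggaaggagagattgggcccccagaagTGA

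The adhesion proteins are far longer. Cdh15 (chromosome 8, 122847966 to 122867397, plus strand) encodes 784 amino acids and Cdh2 encodes 906. Cdon (chromosome 9, 35421128 to 35507652, plus strand) and Boc (chromosome 16, 44485049 to 44558897, minus strand) encode 1250 and 1110. Ncam1 (chromosome 9, 49502136 to 49798925, minus strand) encodes 849, Itgb1 (chromosome 8, 128685654 to 128733200, plus strand) 798, and Myof (chromosome 19, 37899036 to 38043577, minus strand) 2061.

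On a scale of CPM per kilobase of exon, which allows levels to be compared between genes, the median over the 17 libraries was highest for Itgb1 (252) and Myof (53.2), followed by Cdh15 (38.5), Cdh2 (23.97) and Cdon (13.5). Ncam1 stood at 7.07, Boc at 1.60, and the fusion proteins at the foot, Mymk at 1.13 and Mymx at 0.355. The spread followed another order. The standard deviation of log2 CPM over the 17 libraries put Mymk at the 99.0th percentile of all genes, Mymx at the 98.1th and Cdh15 at the 97.9th. Ncam1, Boc and Cdon lay at percentiles 78.2, 76.8 and 75.7, Itgb1 and Cdh2 at 41.9 and 41.6, and Myof at 13.6. From the lowest to the highest library Cdh15 spanned 31.8-fold, Cdon 6.04-fold and Myof 1.72-fold.

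**Figure D1:**
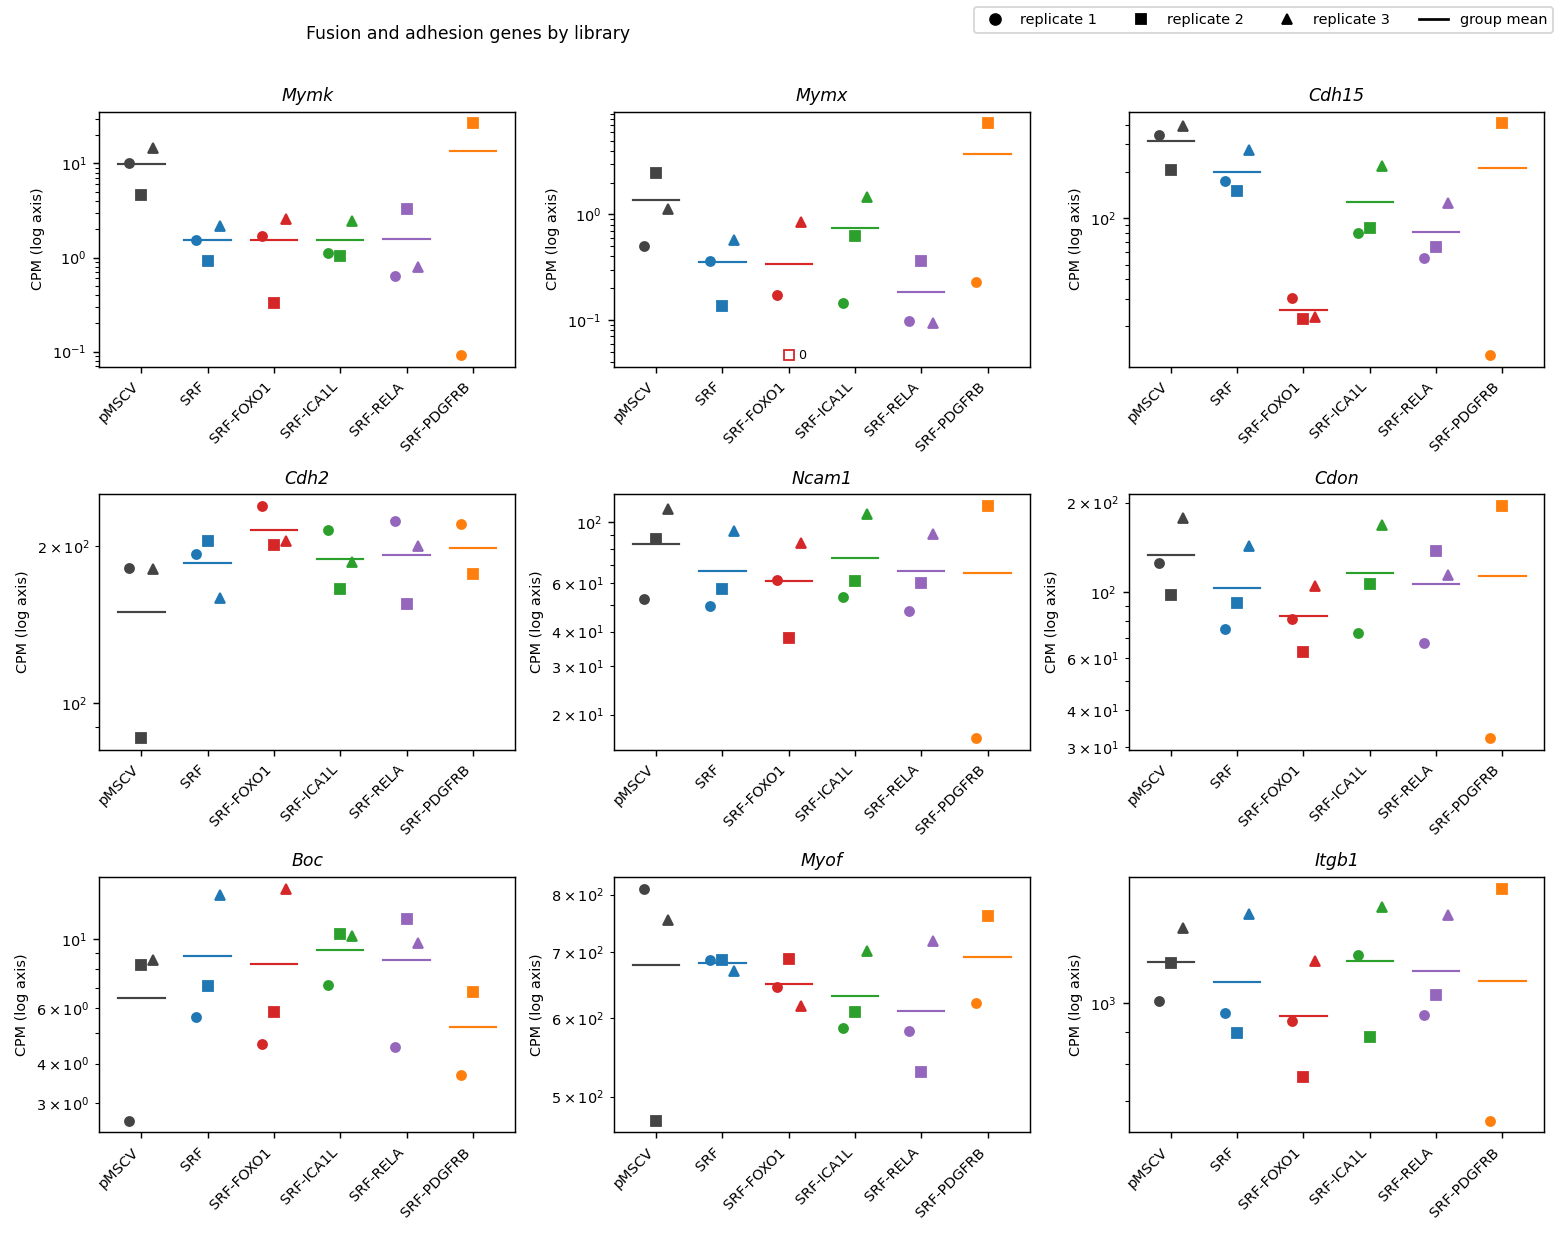
Level of each of the 9 members in every library, in CPM on a log axis, by group, with a point for each replicate. Mymk is highest in pMSCV among the groups of 3, Cdh15 is lowest in SRF-FOXO1, and the 2 SRF-PDGFRB libraries lie far apart for Mymk, Mymx and Cdh15.

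Myomaker was low in every line that expressed SRF or a fusion, apart from 1 SRF-PDGFRB library. Mymk stood at 10.2, 4.63 and 14.7 CPM in pMSCV replicates 1, 2 and 3. It stood at 1.54, 0.914 and 2.18 CPM in SRF, and at 1.70, 0.328 and 2.59 CPM in SRF-FOXO1. The SRF-ICA1L libraries held 1.11, 1.03 and 2.47 CPM, and those of SRF-RELA 0.637, 3.29 and 0.793 CPM. Each of these 12 values lay below the lowest pMSCV value, so none of the 4 groups overlapped with pMSCV, while they overlapped with one another. In SRF-PDGFRB it stood at 0.0918 CPM (2 counts) in replicate 1 and 26.8 CPM (603 counts) in replicate 2, the lowest and the highest values of the series.

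Group means of Mymk were 9.85 ± 5.03 CPM for pMSCV, 1.55 ± 0.632 for SRF, 1.54 ± 1.14 for SRF-FOXO1, 1.54 ± 0.812 for SRF-ICA1L and 1.57 ± 1.49 for SRF-RELA (SD, n = 3 each). As a log2 fold change from pMSCV this came to -2.67 for SRF, -2.67 for SRF-FOXO1, -2.68 for SRF-ICA1L and -2.64 for SRF-RELA, each with an SE of 1.19. These differences did not pass the test of edgeR with Benjamini-Hochberg adjustment over all genes: the adjusted p was 0.990, 0.220, 0.783 and 0.600 in that order. Mymk ranged over a factor of 3.17 among the pMSCV libraries alone. A block for replicate number was fitted in the 12 libraries outside SRF-FOXO1 and SRF-PDGFRB, whose numbers pair, and there Mymk fell in SRF-RELA by 2.53 on the log2 scale (SE 0.66, edgeR adjusted p 0.0498). In that fit SRF-ICA1L came to -2.69 (edgeR adjusted p 0.0521) and SRF to -2.65 (edgeR adjusted p 0.165), so all 3 lines had changes of nearly the same size. The unadjusted p in edgeR was higher in SRF-RELA (0.00318) than in SRF-ICA1L (0.00164) and SRF (0.00175). Of all genes, 6.48%, 2.99% and 0.0137% were called in that order, and the adjustment depends on all genes. SRF-RELA stood at 6.22%, 71.0% and 5.40% of the pMSCV library of its number.

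Mymx, the partner of myomaker in fusion, was close to the limit of detection. It had 11, 56 and 24 counts in pMSCV, 8, 3 and 13 in SRF, and 4, 0 and 19 in SRF-FOXO1. The count of 0 allows up to 3 counts, or 0.141 CPM, by counting error alone. It had 3, 14 and 32 counts in SRF-ICA1L and 2, 8 and 2 in SRF-RELA, so SRF-RELA was the only group of 3 that lay wholly below pMSCV. SRF-PDGFRB held 5 counts in replicate 1 and 164 in replicate 2, the highest of the series. The log2 fold change in SRF-RELA against pMSCV was -2.84 (SE 1.31, edgeR adjusted p 0.619, and 0.0563 with the replicate block in 12 libraries), which does not pass in either fit.

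Group means of M-cadherin differed from line to line, with overlap between most neighbours. Cdh15 stood at 347, 206 and 392 CPM in pMSCV replicates 1, 2 and 3. SRF had 173, 149 and 276 CPM, SRF-ICA1L 79.9, 85.6 and 218, and SRF-RELA 55.2, 64.8 and 125. In SRF-FOXO1 it was at 30.4, 22.3 and 22.9 CPM, below every library of the other groups of 3. The SRF-PDGFRB libraries bracketed the series, at 12.9 CPM in replicate 1 and 412 CPM in replicate 2. By group mean the order was pMSCV (314.8 ± 97.1 CPM), SRF (199 ± 67.3), SRF-ICA1L (128 ± 77.9), SRF-RELA (81.7 ± 38.0) and SRF-FOXO1 (25.2 ± 4.53; SD, n = 3 each), with SRF-PDGFRB between pMSCV and SRF at 212 ± 282 (SD, n = 2). Neighbours in this order overlapped, except that SRF-RELA and SRF-FOXO1 did not.

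In SRF-FOXO1 the log2 fold change of Cdh15 from pMSCV was -3.64 (SE 0.85), with an unadjusted p of 0.000768 and an adjusted p of 0.0531 in edgeR, just outside the threshold of 0.05. DESeq2 placed it inside (-3.63, adjusted p 0.000129), as did edgeR on the pMSCV and SRF-FOXO1 libraries alone (adjusted p 0.0181, with 0.228% of all genes called). So did edgeR with only genes of a mean CPM of at least 1 (adjusted p 0.0488, with 1.85% called) and with a replicate block over all 17 libraries (adjusted p 0.0331, with 6.78% called), although the numbers of these groups were not shown to pair. Without 1 library at a time, the edgeR change ran from -3.45 to -3.88 and the adjusted p from 0.0468 (without pMSCV replicate 2, with 2.36% called) to 0.214. Against SRF, Cdh15 in SRF-FOXO1 had a log2 fold change of -2.98 (SE 0.83, edgeR adjusted p 0.179), and no SRF-FOXO1 library reached the lowest SRF library. The numbers of these groups were paired on weak correlations of 0.220 to 0.330. With the replicate block in their 6 libraries Cdh15 fell by 2.92 (SE 0.24, edgeR adjusted p 0.0364). DESeq2 over 17 libraries gave an adjusted p of 0.00739, and edgeR on the SRF and SRF-FOXO1 libraries alone 0.0436, with 3.79% of all genes called.

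In the 12 paired libraries with the replicate block, Cdh15 also fell in SRF-ICA1L, by 1.41 against pMSCV (SE 0.21, edgeR adjusted p 0.0115), and in SRF-RELA, by 1.99 (SE 0.22, edgeR adjusted p 0.00209). It fell in SRF-RELA against SRF by 1.31 (SE 0.21, edgeR adjusted p 0.0327). In the same 12 libraries without the block these comparisons gave -1.29 (SE 0.46), -1.93 (SE 0.47) and -1.27 (SE 0.46) and were not called (edgeR adjusted p 0.531, 0.188 and 0.977). Over all 17 libraries without a block the SEs were wider, at 0.78, 0.79 and 0.78, for changes of -1.30, -1.95 and -1.28 (edgeR adjusted p 0.863, 0.557 and 0.975). The change from pMSCV to SRF itself was -0.66 (SE 0.77), and -0.69 with the block (SE 0.21, edgeR adjusted p 0.241), so the difference of SRF from the vector did not pass. Within replicate numbers every SRF, SRF-ICA1L, SRF-RELA and SRF-FOXO1 library lay below the pMSCV library of its number. SRF stood at 49.8%, 72.3% and 70.3% of it for numbers 1, 2 and 3. SRF-ICA1L stood at 23.0%, 41.6% and 55.5%, SRF-RELA at 15.9%, 31.5% and 32.0%, and SRF-FOXO1 at 8.77%, 10.8% and 5.85%. The numbers of SRF-FOXO1 were not shown to pair with those of pMSCV, so its percentages match libraries by label only.

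**Figure D2:**
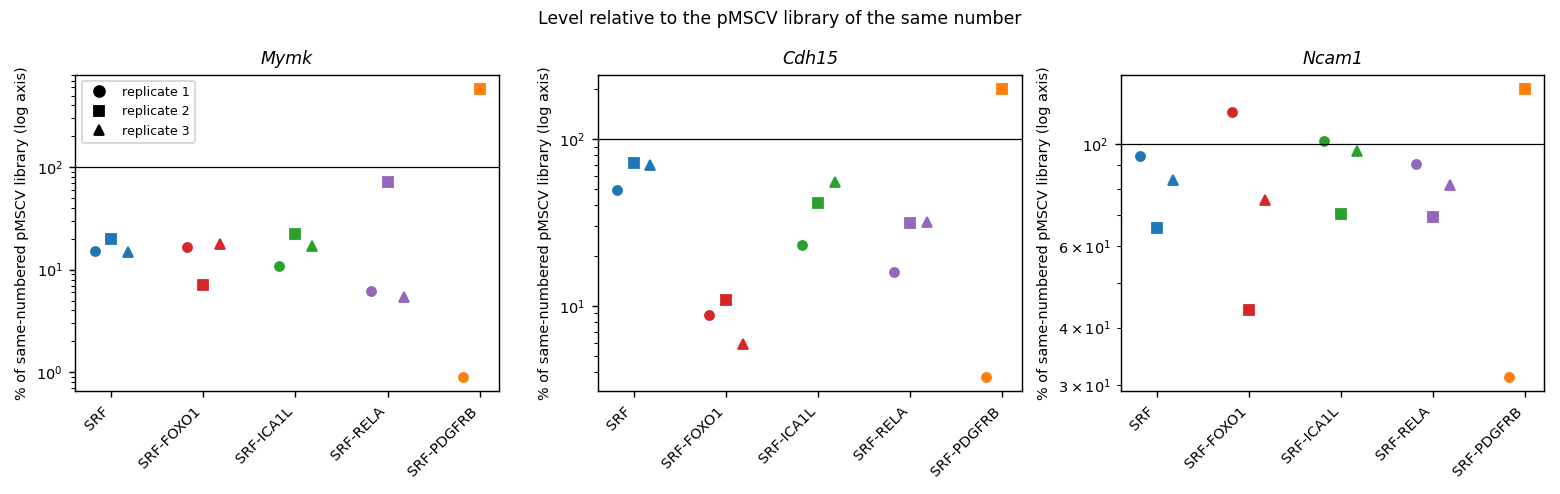
Level of Mymk, Cdh15 and Ncam1 as a percentage of the pMSCV library with the same replicate number (log axis), with a point for each library of the SRF and fusion groups and a line at 100%. Mymk and Cdh15 lie under 100% in every library but SRF-PDGFRB replicate 2, while Ncam1 lies nearer the line. The numbers of SRF-FOXO1 and SRF-PDGFRB were not shown to pair with those of pMSCV.

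N-cadherin did not follow M-cadherin. Cdh2 (chromosome 18, 16588877 to 16809246, minus strand) stood at 182, 85.6 and 181 CPM in pMSCV and at 239, 202 and 205 CPM in SRF-FOXO1, which lay wholly above pMSCV. The log2 fold change was 0.53 (SE 0.25) and did not pass (edgeR adjusted p 0.239). SRF stood at 193, 205 and 159 CPM, SRF-ICA1L at 215, 165 and 187, SRF-RELA at 224, 155 and 200, and SRF-PDGFRB at 221 and 177. Of the libraries with SRF or a fusion, only SRF replicate 3 (88.1%) lay below the pMSCV library of its number, and pMSCV replicate 2 was the lowest of all 17. For SRF-FOXO1 and SRF-PDGFRB the numbers were not shown to pair with those of pMSCV. Cdh2 was 1 of 2 members, with Boc, whose log2 fold change was above 0 in SRF and in each of SRF-FOXO1, SRF-ICA1L and SRF-RELA against pMSCV.

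The receptors that work beside the cadherins showed small differences between lines. Cdon stood at 125, 97.9 and 177 CPM in pMSCV and at 81.2, 62.8 and 104 CPM in SRF-FOXO1, its lowest group mean. The means were 82.8 ± 20.8 for SRF-FOXO1 and 133.5 ± 40.2 for pMSCV (SD, n = 3 each). The groups overlapped, and the log2 fold change of -0.69 (SE 0.51) did not pass (edgeR adjusted p 0.467). SRF stood at 75.1, 91.7 and 143 CPM, SRF-ICA1L at 72.8, 106 and 168, and SRF-RELA at 67.6, 137 and 114. Boc, the weaker of the pair, ran from 2.63 CPM in pMSCV replicate 1 to 14.4 CPM in SRF-FOXO1 replicate 3. Group means of Boc lay between 5.22 CPM (SRF-PDGFRB) and 9.25 CPM (SRF-ICA1L), and every neighbour in the order overlapped. Boc in SRF-ICA1L lay above both SRF-PDGFRB libraries, but the log2 fold change of 0.82 (SE 0.62) did not pass (edgeR adjusted p 0.9999).

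Ncam1, a homophilic adhesion molecule, stood at 52.6, 87.0 and 111 CPM in pMSCV and 61.6, 38.1 and 84.0 CPM in SRF-FOXO1. In the other groups of 3 it took values from 47.5 CPM (SRF-RELA replicate 1) to 107 CPM (SRF-ICA1L replicate 3). Its group mean was lowest for SRF-FOXO1 (61.2 ± 23.0 CPM) and highest for pMSCV (83.6 ± 29.5 CPM; SD, n = 3 each), and all groups overlapped. The log2 fold changes from pMSCV ran from -0.45 (SRF-FOXO1) to -0.18 (SRF-ICA1L) among the groups of 3, each smaller than its SE of 0.55 in the fit without a block. With the replicate block in 12 libraries the SE was 0.12, and SRF and SRF-RELA each came to -0.32 (edgeR unadjusted p 0.0216 and 0.0222, adjusted p 0.284 and 0.143). In both lines Ncam1 lay below the pMSCV library of its number in 3 of 3 pairs, but neither change passed the adjusted threshold.

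Itgb1 and Myof, the most abundant members, varied least between lines. Group means of Itgb1 lay between 953.8 ± 200 CPM in SRF-FOXO1 and 1162 ± 267 CPM in SRF-ICA1L (SD, n = 3 each). Those of Myof lay between 609.9 ± 97.4 CPM in SRF-RELA and 681.6 ± 9.75 CPM in SRF among the groups of 3, with pMSCV at 679.1 ± 181 (SD, n = 3 each). All groups overlapped for both genes. The largest log2 fold change from pMSCV was -0.28 (SE 0.29) for Itgb1 in SRF-FOXO1 and -0.16 (SE 0.19) for Myof in SRF-RELA.

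**Figure D3:**
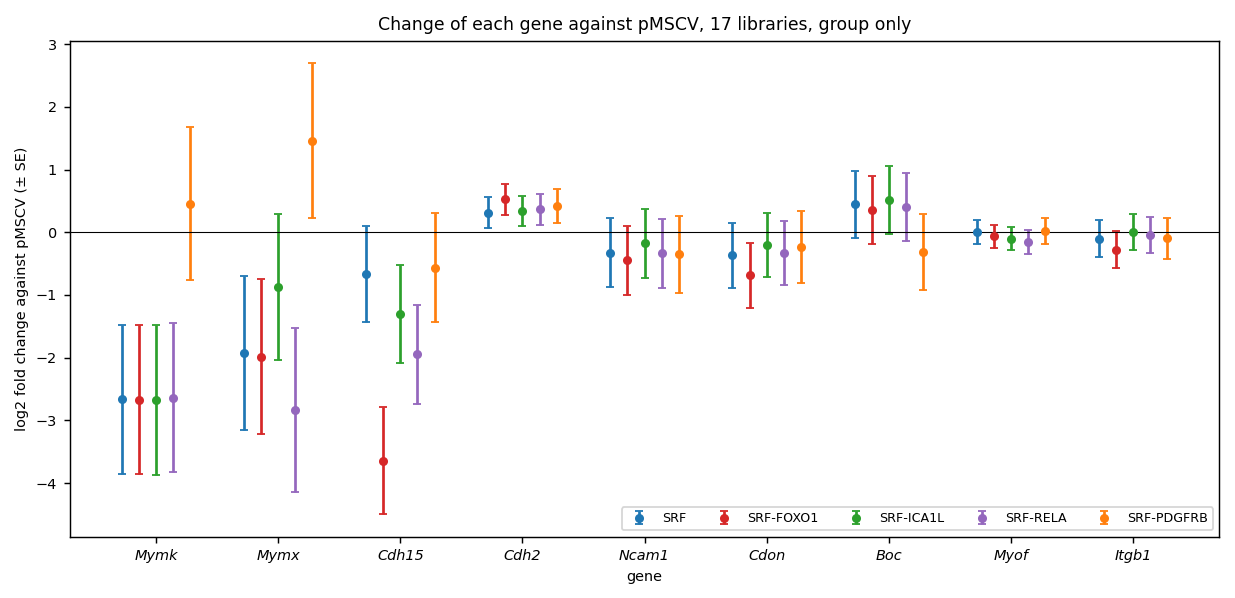
Log2 fold change of each member against pMSCV in each of the 5 other groups, from the edgeR fit over 17 libraries, with bars of 1 SE. Mymk, Mymx and Cdh15 lie furthest from 0 in each group, with Mymk and Mymx above 0 in SRF-PDGFRB, and no point passes an adjusted p of 0.05.

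Comparisons with one group share its libraries, so they are not independent of each other. Across the 16 comparisons, edgeR called 0 of the 9 members in each, read against few calls among all genes. Against pMSCV, the share of all genes called was 0.00664% for SRF, 0.71% for SRF-FOXO1, 0% for SRF-ICA1L as for SRF-RELA, and 0.0199% for SRF-PDGFRB. Against SRF it was 0.00664% for SRF-FOXO1, 0% for SRF-ICA1L, 0.00664% for SRF-RELA and 0.0531% for SRF-PDGFRB. Among the SRF-FOXO1, SRF-ICA1L and SRF-RELA lines, the 3 comparisons called 0% of genes. Against SRF-PDGFRB it was 0.0266% for SRF-FOXO1, 0.0332% for SRF-ICA1L and 0.00664% for SRF-RELA, and 0.0199% for the 4 fusions averaged against pMSCV and SRF averaged.

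At an unadjusted p under 0.05 in edgeR the members did not stand at 0. SRF against pMSCV had 1 of 9 (Mymk), beside 3.34% of all genes, and SRF-ICA1L 1 of 9 (Mymk), beside 6.23%. SRF-FOXO1 had 2 of 9 (Mymk and Cdh15), beside 20.9% of all genes, a share of the same order as the members' own. SRF-RELA had 3 of 9 (Mymk, Mymx and Cdh15), beside 8.05%, and SRF-PDGFRB 0 of 9, beside 7.7%. Against SRF, SRF-FOXO1 had 1 of 9 (19.2% of all genes), SRF-PDGFRB 2 (5.03%), and SRF-ICA1L and SRF-RELA 0 each (1.56% and 3.21%). SRF-FOXO1 had 1 of 9 against each of SRF-ICA1L (5.94%) and SRF-RELA (2.51%), Cdh15 in both, with log2 fold changes of -2.34 and -1.70 (edgeR adjusted p 0.750 and 0.965). Against SRF-PDGFRB, SRF-FOXO1 had 3 of 9 (3.87%), SRF-ICA1L 1 (2.2%) and SRF-RELA 2 (2.7%). The comparison of SRF-ICA1L with SRF-RELA had 0 (0.159%). The average of the fusions had 1 of 9 (18.5%), Cdh15, at -1.53 (SE 0.47, edgeR adjusted p 0.112).

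DESeq2 called 1 of 9 members, Cdh15, in SRF-FOXO1 against pMSCV (9.05% of all genes called), in SRF-FOXO1 against SRF (3.96%) and in the average of the fusions (7.02%), and 0 in the other 13. With the replicate block in the 12 paired libraries, edgeR called 2 of 9 in SRF-RELA against pMSCV (6.48% of all genes), 1 in SRF-ICA1L against pMSCV (2.99%), and 1 when SRF-RELA was set against SRF (0.656%). It called 0 in SRF against pMSCV (0.0137%), in SRF-ICA1L against SRF (0.0956%) and in SRF-ICA1L against SRF-RELA (0%). At an unadjusted p under 0.05 in that fit, SRF against pMSCV had 4 of 9 members, beside 15.1% of all genes, SRF-ICA1L 3 (19%) and SRF-RELA 4 (22.4%). SRF-ICA1L against SRF had 1 of 9 (9.08%), SRF-RELA against SRF 1 (17%), and SRF-ICA1L against SRF-RELA 2 (1.82%). The block in the 6 SRF and SRF-FOXO1 libraries called 1 of 9 (1.57%). Groups that did not overlap were seen for 3 members in SRF-RELA against pMSCV, all lower (5.91% of all genes lower), and for 2 lower and 1 higher in SRF-FOXO1 (11.6% and 11.4%). For SRF and SRF-ICA1L against pMSCV it was Mymk alone, lower (5.15% and 5.54%). As a median over the 9 members, the log2 fold change against pMSCV came to -0.33 for SRF, -0.45 for SRF-FOXO1, -0.18 for SRF-ICA1L, -0.33 for SRF-RELA and -0.10 for SRF-PDGFRB, where the median over all genes lay between -0.02 and 0.01.

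Replicate number went with the level of several members more than the line did. In the 12 paired libraries, replicate number held 86.2% of the variance of log2 CPM of Ncam1 and the group 9.12%. For Itgb1 the shares were 75.8% and 3.62%, for Boc 64.7% and 15.9%, and for Cdon 60.5% and 11.3%. The other side was held by Mymk, with 3.87% for replicate number and 72.7% for group, by Cdh15 with 25.0% and 69.3%, and by Mymx with 16.8% and 50.8%. For Cdh2 the shares were 32.4% and 26.3%, with 41.3% left to neither, and for Myof 39.0% and 9.41%, with 51.6% left to neither. The medians over all genes were 49.6% and 19.5%. Replicate 3 was the highest library of its group in 5 of 5 groups of 3 for Ncam1 and Itgb1, and in 4 of 5 for Mymk, Cdh15 and Cdon. Cdh2 was highest in replicate 1 in 4 of 5. How often each replicate was the highest over all genes was not counted. The labels do not say what a replicate number marks.

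**Figure D4:**
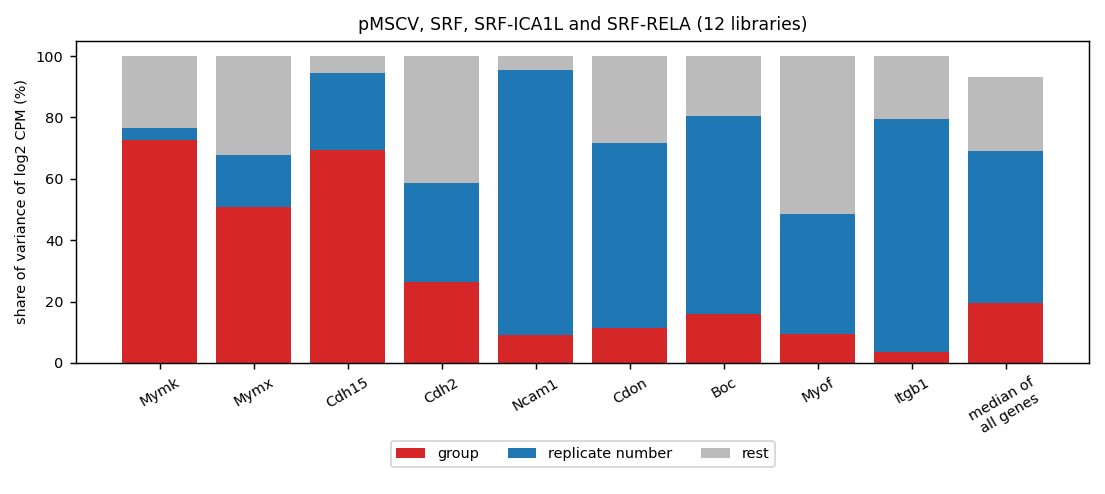
Share of the variance of log2 CPM (percent) that goes with replicate number, with group and with neither, for each member over the 12 paired libraries. The bar for all genes gives the median of each share and so does not sum to the whole. Ncam1 and Itgb1 are mostly replicate number, and Mymk and Cdh15 mostly group.

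The 2 SRF-PDGFRB libraries differed widely in most of the members. Replicate 2 exceeded replicate 1 in 8 of 9 members, was the highest of all 17 libraries in 6 of 9, and replicate 1 was the lowest in 5 of 9. The share of all genes with their extremes in these libraries was not counted. The ratio of replicate 2 to replicate 1 was 292 for Mymk, with a 95% exact interval of 80.5 to 2418 that covers counting error only, since replicate 1 held 2 counts. It was 31.8 for Cdh15 and for Mymx, 6.96 for Ncam1, 6.04 for Cdon, 2.32 for Itgb1, 1.84 for Boc and 1.22 for Myof, and 0.802 for Cdh2. Among all genes, ranked by the log2 difference, Mymk lay at percentile 99.9, Cdh15 at 99.5 and Mymx at 99.2. In all, 6 of 9 members were at least 2-fold higher in replicate 2 and 0 at least 2-fold lower, beside 11.2% and 10.5% of all genes.

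No mean of that line therefore describes both libraries. With both, Mymk in SRF-PDGFRB was higher than in SRF by 3.12 on the log2 scale (SE 1.27, edgeR adjusted p 0.910), and Mymx by 3.38 (SE 1.32, edgeR adjusted p 0.910), neither of which passed. Without replicate 2 the changes turned to -3.99 and -0.62. Cdh15 in SRF-FOXO1 against SRF-PDGFRB moved from -3.07 (edgeR adjusted p 0.999) to 0.96 without replicate 2 and to -4.01 without replicate 1. With both libraries, Cdh15 in SRF-PDGFRB had a log2 fold change of -0.57 from pMSCV (SE 0.87, edgeR adjusted p 0.952). It was -4.60 without replicate 2 and 0.37 without replicate 1. In these fits the lone library is assumed to vary like the other groups. The average of the fusions moved too. With all libraries Cdh15 was at -1.53 and Mymk at -0.55 (edgeR adjusted p 0.112 and 0.716). Without SRF-PDGFRB replicate 2 they came to -2.54 and -2.33. Without the whole SRF-PDGFRB group, Cdh15 came to -1.97 (edgeR adjusted p 0.00705), with 2.65% called.

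Levels of the myogenic programme differed between the same groups, and their part in the differences of the members was not tested. Myog, the factor that switches on terminal differentiation, stood at 11.0, 13.6 and 22.4 CPM in pMSCV, 2.59, 1.97 and 6.23 CPM in SRF, and 2.70, 0.234 and 5.26 CPM in SRF-FOXO1. SRF-ICA1L had 1.35, 1.52 and 7.37 CPM of it, SRF-RELA 0.979, 2.74 and 1.63, and SRF-PDGFRB 0.230 and 85.5. The pMSCV libraries thus lay above all of the other groups of 3, as they did for Mymk. Summed, Myog, Myh3, Ckm and Acta1 gave 86.8 to 205.5 CPM in pMSCV, 25.7 to 71.8 in SRF, 24.2 to 42.2 in SRF-FOXO1, 39.1 to 68.1 in SRF-ICA1L, 29.7 to 182 in SRF-RELA and 8.54 to 393 in SRF-PDGFRB. The summed myoblast markers without Cdh15 gave 562 to 901 CPM in pMSCV, 326 to 730 in SRF, 206 to 552 in SRF-ICA1L, 164 to 373 in SRF-RELA and 104 to 138 in SRF-FOXO1, the same order of lines as the group means of Cdh15. Des made up most of these sums. Group means of Des, Myod1 and Myf5 each ran in that order, while those of Pax7 put SRF-ICA1L (3.94 CPM) above SRF (1.97 CPM). Myod1 was 19.5-fold and Myog 372-fold higher in SRF-PDGFRB replicate 2 than in replicate 1.

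Around the members, 5 lists of pathway genes were read in the same fits. Of 28 genes of the fusion machinery and its regulators in the table, 0 were called in any of the 16 comparisons over 17 libraries, and 0 of 7 cadherins and catenins, 0 of 15 Cdon and Boc partners and hedgehog genes and 0 of 9 caveola genes. Of 16 integrins and their adaptors, 1 was called, in SRF-FOXO1 against pMSCV: Itga7, the alpha subunit that pairs with Itgb1 to bind laminin. In that comparison the unadjusted counts were 3 higher and 0 lower for fusion machinery, 1 and 0 for cadherins, 4 and 2 for integrins, 1 and 1 for hedgehog genes and 0 and 2 for caveola genes. Together these were 14 of 75 genes, or 18.7%, beside 20.9% of all genes, a share near the background. The list medians there lay between 0.02 and 0.16 on the log2 scale, beside 0.00 over all genes.

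Itga7 stood at 579, 434 and 480 CPM in pMSCV, 284, 202 and 288 CPM in SRF, and 126, 135 and 95.6 CPM in SRF-FOXO1. It fell in SRF-FOXO1 by 2.06 on the log2 scale (SE 0.36, edgeR adjusted p 0.0336), while its partner Itgb1 did not pass. The call was lost (edgeR) on leaving out pMSCV replicate 1 (adjusted p 0.114) or 3 (0.0735), or replicate 1 (0.0801) or 3 (0.151) of SRF-FOXO1. With the block in the paired libraries Itga7 also fell in SRF-ICA1L (171, 169 and 293 CPM) by 1.26 (edgeR adjusted p 0.00946) and in SRF-RELA (161, 174 and 205 CPM) by 1.46 (edgeR adjusted p 0.00310). The SRF libraries lay wholly below pMSCV too, without a call in that fit, and overlapped with SRF-ICA1L.

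With the same block, 11 of the 75 pathway genes passed in at least 1 comparison with pMSCV. SRF had 0 of 75, SRF-ICA1L 5 (6.67%, beside 2.99% of all genes called) and SRF-RELA 10 (13.3%, beside 6.48%). Adam12, a metalloprotease-disintegrin of fusing myoblasts, rose from 11.8, 6.13 and 26.8 CPM in pMSCV to 40.01, 21.8 and 58.7 CPM in SRF-ICA1L, by 1.56 (SE 0.24, edgeR adjusted p 0.0124). It rose in SRF-RELA, at 38.9, 21.3 and 81.7 CPM, by 1.70 (edgeR adjusted p 0.00424). In SRF it stood as high, at 30.9, 31.3 and 51.1 CPM, wholly above pMSCV, with a change of 1.57 that did not pass (edgeR adjusted p 0.0940). In SRF-FOXO1, outside that fit, it stood at 36.1, 32.0 and 65.2 CPM, also wholly above pMSCV. Cdh11, a mesenchymal cadherin, rose in SRF-RELA by 2.14 (edgeR adjusted p 0.0195), from 0.369, 2.38 and 1.17 CPM to 0.979, 7.62 and 11.1 CPM. Among integrins in SRF-RELA, Itga4, the subunit that binds Vcam1, fell by 2.38 (edgeR adjusted p 0.0306), and Itgav, a subunit that binds vitronectin and fibronectin, rose by 0.42 (edgeR adjusted p 0.0453). The low level of Itga4 was not particular to SRF-RELA (at most 5.11 CPM). SRF (at most 5.23 CPM), SRF-ICA1L (at most 5.27) and SRF-FOXO1 (at most 1.59) also lay wholly below pMSCV (7.06 to 15.8 CPM). SRF-FOXO1, outside that fit, had the lowest group mean of Itga4, at 1.01 CPM. The SRF-PDGFRB libraries stood at 0.459 and 15.3 CPM. Itgb3, a partner of Itgav, rose in SRF-ICA1L by 1.004 (edgeR adjusted p 0.0304).

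Of the hedgehog list, Gli3, a transcription factor of the pathway, rose in SRF-ICA1L by 0.63 and in SRF-RELA by 0.61 (edgeR adjusted p 0.0154 and 0.0107, replicate block). In SRF-RELA, Hhip, which binds and sequesters hedgehog ligands, fell by 1.69 (edgeR adjusted p 0.0302) and the guidance cue Ntn1 by 0.65 (edgeR adjusted p 0.0452). Of the caveola list, the coat protein gene Cavin2 fell in SRF-ICA1L by 1.22 (edgeR adjusted p 0.0458) and in SRF-RELA by 1.60 (edgeR adjusted p 0.0107). The pMSCV libraries held 236, 171 and 135 CPM, the SRF-ICA1L libraries 98.8, 52.1 and 85.9, and the SRF-RELA libraries 42.9, 51.4 and 80.9. SRF-FOXO1 held 24.8 to 43.4 CPM and SRF-PDGFRB 10.7 and 123, so no fusion library reached pMSCV. The SRF libraries (105 to 196 CPM) overlapped with pMSCV. Pacsin2, which bends the membrane at caveolae, fell in SRF-RELA by 0.65 (edgeR adjusted p 0.0150). SRF-FOXO1, outside that fit, lay wholly below pMSCV for Hhip (3.24 to 15.5 CPM, pMSCV 27.7 to 131) and Pacsin2 (227 to 306, pMSCV 401 to 652). It lay wholly above pMSCV for Gli3 (82.8 to 132, pMSCV 54.5 to 64.1). Of all genes, 11.6% lay wholly lower and 11.4% wholly higher in SRF-FOXO1 than in pMSCV. In the fit over 17 libraries without the block none of these genes but Itga7 passed in any comparison.

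**Figure D5:**
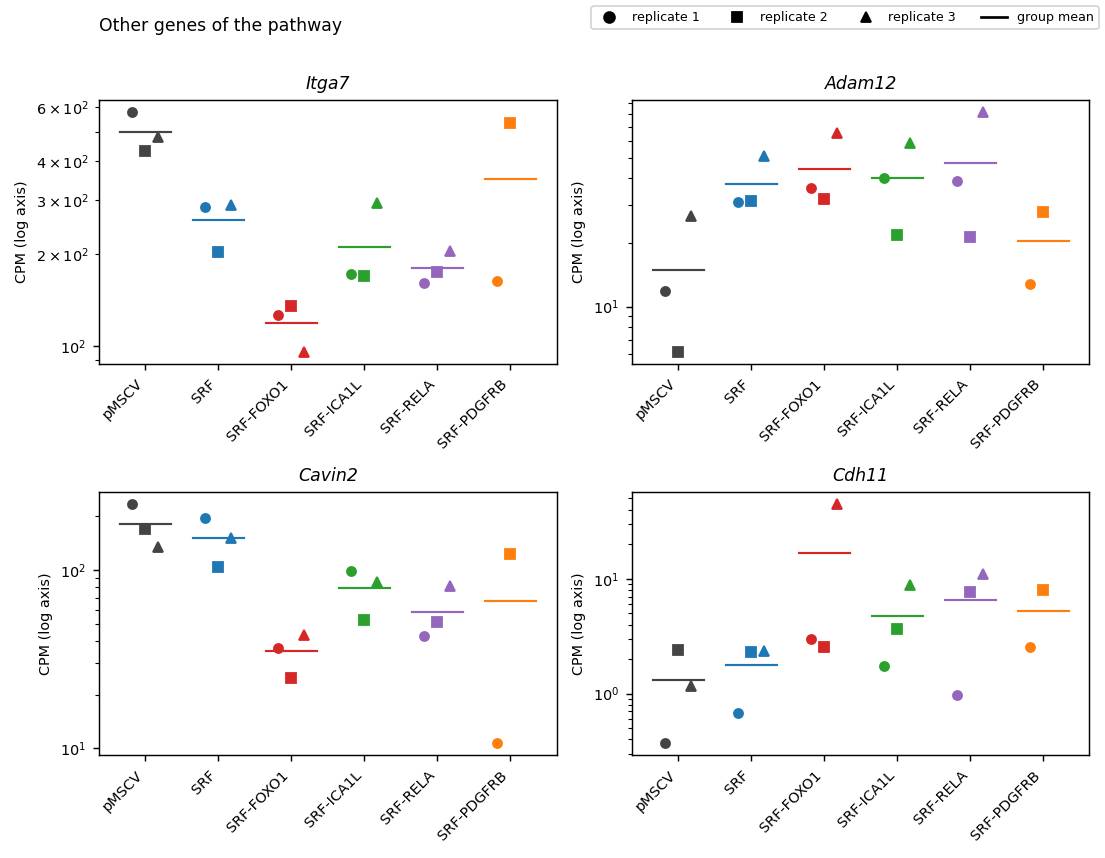
Level of Itga7, Adam12, Cavin2 and Cdh11 in every library, in CPM on a log axis, by group, with a point for each replicate. Itga7 and Cavin2 are lower in SRF-FOXO1, SRF-ICA1L and SRF-RELA than in pMSCV, and Adam12 lies higher in most libraries of those lines.

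Genes whose log2 CPM followed a member most closely over the 17 libraries are given as a description, since the libraries share groups and replicate numbers. Cdh15 was followed by Alox5 (Pearson r 0.985), Chrna1, a subunit of the muscle acetylcholine receptor (0.975), and Khdrbs3 (0.974). Genes following Cdh2 included Pura (0.933) and Vps33a (0.902). Cdon was followed by Abhd6 (0.927), Sulf1 (0.915) and Pnmal2 (0.909). Boc went with Fndc1 (0.893), Fstl1 (0.886) and Inhbb (0.877), and Myof with Cyfip1 (0.922), Kif24 (0.886) and Npnt (0.880). Ncam1 and Itgb1 shared their nearest genes: Lrrc4c (0.924 with Ncam1 and 0.916 with Itgb1) and Calm3 (0.912 and 0.908). Ncam1 was itself among the nearest of Itgb1, at 0.908. Mymk and Mymx had under 10 counts in some libraries and were left out.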

How the data were processed

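The values used were raw counts per gene, deposited by the authors in 1 table with a column for each of the 17 libraries. Per the submitters' processing notes, the tools were FastQC 0.11.8, Trimmomatic 0.39, HISAT2 and featureCounts of Subread 2.0.0, with the build GRCm38. The library kit keeps the strand of mRNA, per the labels' protocols. The strand setting of the counting is not given in the sources used here, so reads of overlapping genes may not be told apart. Every gene in the table reached 10 counts in at least 3 libraries. Of 1531 rows with no symbol, 1519 received one by gene identifier. No row of the 9 members was changed.

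Groups and replicate numbers came from the sample titles. All 17 libraries entered 1 fit of edgeR's quasi-likelihood test (edgeR 4.0.16 in R 4.3.3, with limma 3.58.1), scaled by TMM, with dispersions estimated robustly and group as the only term. Benjamini-Hochberg adjustment ran over 15062 genes, separately for the 16 comparisons, and called means an adjusted p under 0.05. SEs were derived from the log2 fold change and its quasi-likelihood F. CPM use TMM-scaled library sizes. The biological coefficient of variation was 36.5%. Depth leaves little counting error except in Mymk and Mymx. The fit was also run on simulated counts with a common dispersion for all genes and no replicate effect. That setting does not cover members of wider spread. Their biological coefficients of variation were 91.0% for Mymk, 96.8% for Mymx and 62.7% for Cdh15.

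To check pairing, deviations from the group means were correlated across genes between same-numbered libraries. All pairs correlated at 0.392 to 0.789 among SRF, SRF-RELA, SRF-ICA1L and pMSCV, and SRF with SRF-FOXO1 at 0.220 to 0.330, so fits with a replicate block were made within these sets. SRF-FOXO1 correlated with pMSCV, SRF-ICA1L and SRF-RELA at -0.195 to 0.501, so its pairing with SRF is uncertain. With SRF-PDGFRB the correlations ran from -0.509 to 0.345. The pairing comes from these correlations, not from the labels. Other settings were DESeq2 1.42.0, RLE size factors, no low-count filter, a mean CPM of at least 1, the compared groups alone, the 12 libraries without the block, and leaving out each library.

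The members and the pathway and marker lists were chosen with earlier results of these data known. A log2 fold change was printed as a tested result where the unadjusted p was under 0.05 or the blocked fit called it. From each list up to 4 called genes were named, by size of change. Coordinates, exon lengths and coding lengths come from GENCODE vM21. Some genes that these rules name are not reported here.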

Additional observations from a re-analysis of the deposited data

How the results depend on the processing

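Over 17 libraries with a term for group only, 0 of 9 members were called in each of the 16 comparisons. For SRF-FOXO1 against pMSCV the count was 1 under DESeq2, 1 with only genes of a mean CPM of at least 1, 1 with only the compared groups, and 1 with a replicate block over 17 libraries, where these numbers were not shown to pair. Leaving out 1 library gave 0 to 1, the call coming without pMSCV replicate 2. For SRF-FOXO1 against SRF it was 1 under DESeq2, 1 with only the compared groups and 1 with the replicate block in 6 libraries. The pairing of those 6 rests on weak correlations. With the replicate block in 12 libraries it was 1 for SRF-ICA1L and 2 for SRF-RELA against pMSCV, and 1 for SRF-RELA against SRF. For the 4 fusions averaged it was 1 under DESeq2 and 1 without the SRF-PDGFRB group (7.02% and 2.65% of all genes called). Fits without 1 SRF-PDGFRB library leave a lone library in that group, so members called in them are not counted here. The genes behind these counts were Cdh15 and, for SRF-RELA against pMSCV with the block, also Mymk. The cause was not tested. The block changed no other call of a member. RLE size factors moved no count, nor did the 12 libraries without the block. The setting with no low-count filter kept the same 15062 genes, so it could not move one.

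Of the 21 changes of members with an unadjusted p under 0.05 or a call with the block, directions turned only where SRF-PDGFRB replicate 2 was left out. Of all 144 pairs of member and comparison, 68 turned under some other setting, and all 68 had a change within 1 SE in the 17-library fit. Over all left-out libraries, the log2 fold change of Mymk ran from -3.99 to 4.10 for SRF-PDGFRB against SRF. Against SRF-PDGFRB it ran from -4.10 to 3.99 for SRF-FOXO1, from -4.11 to 3.98 for SRF-ICA1L and from -4.22 to 4.02 for SRF-RELA. Mymx ran from -0.62 to 4.32 for SRF-PDGFRB against SRF, and for SRF-FOXO1 against SRF-PDGFRB from -5.31 to 0.56, where Cdh15 ran from -4.01 to 0.96. Over all genes, DESeq2 called 1363 in SRF-FOXO1 against pMSCV where edgeR called 107, and 597 against 1 in SRF-FOXO1 against SRF. Counting error limits Mymx, with 0 to 164 counts, and Mymk, with 2 to 603.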
